A study of Mus musculus with 24 samples.

Results

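Vascular smooth muscle cells (VSMCs) kept for 48 h in control medium were compared with the same kind of cells at 0 h. The aim was to show which transcripts differed between these times without cholesterol. The members are the RNA libraries labelled as control at these times: 3 libraries at 0 h (replicates 1 to 3) and 2 at 48 h (replicates 2 and 3), 5 of the 14 RNA libraries and of the 24 samples in all. The series treated primary VSMCs with cholesterol complexed to its carrier methyl-β-cyclodextrin (Chol:MβCD) or left them untreated, and profiled polyadenylated RNA and acetylation of histone H3 at lysine 27 (H3K27ac). Every group came from thoracic aortas of young adult mice of strain C57BL/6J, was used at low passage and had been grown in DMEM with 10% FBS. The 0 h and 48 h groups were untreated and differ by their time in 0.2% BSA without Chol:MβCD. By the methods, the 0 h cells had spent 0 h in that medium, and no group was kept in the growth medium for 48 h. A change of medium and time in culture therefore cannot be told apart. Control cells at 24 h (3 libraries) and cells given 20 ug/mL Chol:MβCD in 0.2% BSA for 48 h (3 libraries) are used below for side-by-side values. Neither the labels nor the methods say whether the BSA medium also held serum. The first control replicate at 48 h was discarded by the study and is not analysed here. The study also left control 0 h replicate 1 out of its comparison with published data, since that library did not cluster with its group. It is used here, and values without it are given below. The study describes the libraries as biological triplicates and names 2 sequencing sites without saying which library was run where, so a site cannot be told apart from the groups.

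VSMCs form the contractile middle layer of arteries. In culture they also make collagens, elastic fibre proteins and proteoglycans, and they can secrete chemokines and complement proteins. Serum carries growth factors, hormones and lipids, and cells moved from a serum-rich medium to a plain protein carrier are known to change their growth and secretory programmes. NF-kB is a transcription factor that is held in the cytoplasm by inhibitor proteins such as the product of Nfkbia, and that drives chemokine and adhesion genes once released. Complement is a cascade of secreted proteins that converges on C3.

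The 10 members of the chemokine and NF-kB list that were higher at 48 h include 6 with an entry in the RefSeq promoter table (GRCm38.p6, the assembly of mm10). In 4 of these 6, the 250 bases before the gene start hold a match to GGNNTTTCC, a form of the NF-kB site, on either strand. Of 32851 promoters of the same length, 4.93% hold such a match. The list was chosen to hold NF-kB targets, and its members that were not called were not searched. No conclusion is therefore drawn from the difference between these shares, and a part of NF-kB in the rises was not tested. The stretches around the matches are shown because these 4 genes recur in the results. They are printed in the direction of transcription with the matches in capitals, at chr11:83578637-83578701 (minus strand), chr5:90891126-90891213 (plus strand), chr12:55492648-55492855 (minus strand) and chr9:21015757-21015894 (plus strand).
Ccl9: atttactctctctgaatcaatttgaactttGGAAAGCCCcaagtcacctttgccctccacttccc
Cxcl1: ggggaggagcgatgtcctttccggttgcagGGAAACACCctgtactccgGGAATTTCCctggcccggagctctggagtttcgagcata
Nfkbia: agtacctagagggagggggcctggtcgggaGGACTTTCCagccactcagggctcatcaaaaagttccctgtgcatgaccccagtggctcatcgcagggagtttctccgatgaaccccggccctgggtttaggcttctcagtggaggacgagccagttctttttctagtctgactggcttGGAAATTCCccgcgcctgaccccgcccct
Icam1: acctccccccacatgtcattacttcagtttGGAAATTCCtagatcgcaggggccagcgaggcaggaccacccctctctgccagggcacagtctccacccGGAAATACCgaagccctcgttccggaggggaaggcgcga
Cxcl1, Nfkbia and Icam1 hold 2 separate matches each and Ccl9 holds 1. The matches closest to the start end 21 bases before it in Nfkbia and 27 bases before it in Ccl9. Those of Cxcl1 lie at -89 to -81 and at -70 to -62 from the gene start. The positions in Icam1, -153 to -145 and -84 to -76, are counted from the RefSeq start, which is 20 bases from the start in the expression table. A match describes these letters and does not show binding.

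Expression is given as RPKM, reads per kilobase of the whole gene body with introns, as the authors made it. The low values are whole multiples of 1 tag, a read counted at most once per position, which gives the tag totals of the libraries. These totals were 2726790, 4782250 and 6994320 tags in 0 h replicates 1, 2 and 3, and 4020100 and 3836790 in 48 h replicates 2 and 3. The 14 RNA libraries spanned 2726790 to 7590870 tags, and 0 h replicate 1 had the fewest. With at most 1 tag per position, these totals are not the number of reads sequenced. RPKM values were rescaled between libraries by factors of 0.904 to 1.057 and are called normalized RPKM here. Of 18896 genes above 0, the 12648 whose estimated reads exceeded 70 in some library were tested. Reads were estimated here from RPKM, gene length and the study's mapped reads, not from the tag totals above. A tested gene can therefore rest on fewer tags than that. The test was limma on log2(normalized RPKM + 1), two-sided, with Benjamini-Hochberg adjustment over these genes, and a gene is called when its adjusted p is under 0.05. A log2 fold change on this scale understates the change of low genes, so the ratio of mean normalized RPKM is given beside it. The spread was estimated from all 14 libraries, since control medium at 48 h has only 2. Several genes named below overlap another gene in the table, among them C3, Nfkbia, Nid2, Loxl3, Kif20a, Dbp, Txnip, Des, Cd34, Kctd12 and Tagln, and reads in the shared part cannot be assigned to either. In bulk RNA, fewer cells of a type and less RNA per cell cannot be told apart.

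Between 0 h and 48 h in control medium, 969 genes rose (7.66% of those tested) and 1020 fell (8.06%), 1989 in all (15.7%). The changes were mostly modest, with a median ratio of 1.40 among the rises and of 1.43 among the falls. A ratio of at least 2 was reached by 210 rises and 154 falls. Both 48 h libraries lay above every 0 h library for all 969 rises, against 2436 of all genes tested (19.3%), and below every 0 h library for all 1020 falls, against 2834 (22.4%). The calls were made on these same libraries, so this separation largely follows from the call and is no separate support for it. The Euclidean distance between the pair of 48 h libraries over all genes was 15.7, and those among the 0 h libraries were 13.7 to 24.9, beside 23.5 to 27.8 between a 48 h and a 0 h library. Control libraries at 24 h were 10.2 to 11.0 apart. With cholesterol, libraries were 8.93 to 10.15 apart at 24 h and 14.9 to 23.4 at 48 h. The 24 h groups were tighter than those compared, so the shared spread may understate the SEs and adjusted p-values. In a fit of the 5 libraries alone, which has fewer libraries to estimate the spread, 329 of the rises and 368 of the falls were called.

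**Figure D1:**
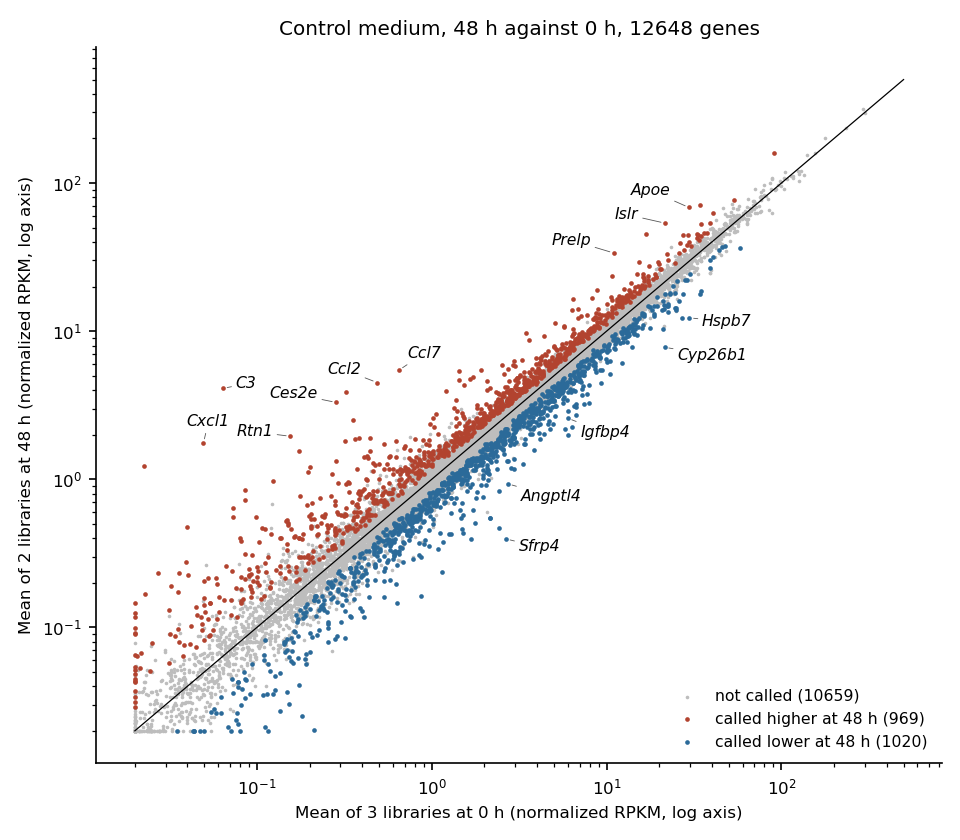
Mean normalized RPKM at 48 h (2 libraries) against 0 h (3 libraries) for the 12648 genes tested, on log axes, with means below 0.02 drawn at 0.02. Genes called higher (969, red) and lower (1020, blue) lie on either side of the line of equal means, and C3 stands far above it, at 0.064 against 4.11 normalized RPKM.

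The tag totals of the 0 h libraries differ, so each change was also fitted against each 0 h library alone. Against replicate 1 alone 811 genes were called higher and 1050 lower, against replicate 2 alone 529 and 508, and against replicate 3 alone 1043 and 730. Of the 969 rises, 560, 465 and 500 were called against replicates 1, 2 and 3, and 292 against each of them. The corresponding numbers for the 1020 falls were 544, 461 and 588, and 301 against each. The calls of these 292 rises and 301 falls thus held whichever single 0 h library was used. In these fits, the lone 0 h library is assumed to vary like the other groups. The 0 h libraries lay 13.7 to 24.9 apart, beside 10.2 to 11.0 for control at 24 h and 14.9 to 23.4 for cholesterol at 48 h. Each fit uses the same 48 h libraries, so the fits are not independent support for the calls.

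Without 0 h replicate 1, 1214 genes were called higher and 1050 lower, and each of the 30 largest changes named below was called. The 0 h libraries, which differ in tag total, differed most for abundant genes. The log2 ratio of 0 h replicate 1 to replicate 3 had a median of -0.02 over all genes, of 0.43 over the 625 genes with a mean of at least 20 normalized RPKM and of 0.66 over the 93 genes with at least 50. Among these 625 genes 37 rose and 22 fell, and among the 93 genes 3 rose and 0 fell. Col1a1, which encodes a chain of type I collagen, had 165, 106 and 80.7 normalized RPKM at 0 h and 108 and 110 at 48 h. The 48 h values of Col1a1 lay inside the range at 0 h (log2 fold change -0.04 ± 0.228 SE, adjusted p = 0.932, limma), but it was called lower against 0 h replicate 1 alone (log2 fold change -0.59, adjusted p = 0.0121) and higher against replicate 3 alone (0.43, adjusted p = 0.0425). Lists of abundant genes moved in the same manner with the 0 h library. Among 23 ER chaperones tested, 1 was called higher against all 3 libraries, 12 against replicate 3 alone and 9 without replicate 1, whereas 5 were called lower against replicate 1 alone. Of 32 lysosome and autophagy genes, 2 were called higher against all 3 libraries, 13 against replicate 3 alone and 7 without replicate 1. These groups are therefore not described further. With the log2 tag total of each library as a covariate in the fit, 957 of the 969 rises and 979 of the 1020 falls were called.

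The 15 largest rises by log2 fold change were C3, Ccl7, Ccl2, Msmp, Ces2e, Prelp, Cxcl1, Kctd12, Tnfrsf18, Cox6b2, Rtn1, Islr, Susd2, Fst and Ephb6, among called genes with a mean of at least 1 normalized RPKM and no overlap between the groups. Ranked by ratio, low genes such as Angptl7 (mean 0.0226 at 0 h and 1.22 at 48 h, log2 fold change 1.11) would stand higher. All 15 were called against each 0 h library alone. They hold secreted immune proteins (C3 and the chemokines Ccl7, Ccl2 and Cxcl1), a tumour necrosis factor receptor family member (Tnfrsf18), matrix or secreted proteins (Prelp, Islr, Fst), a carboxylesterase (Ces2e), a subunit of cytochrome c oxidase (Cox6b2) and an Eph receptor (Ephb6).

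**Figure D2:**
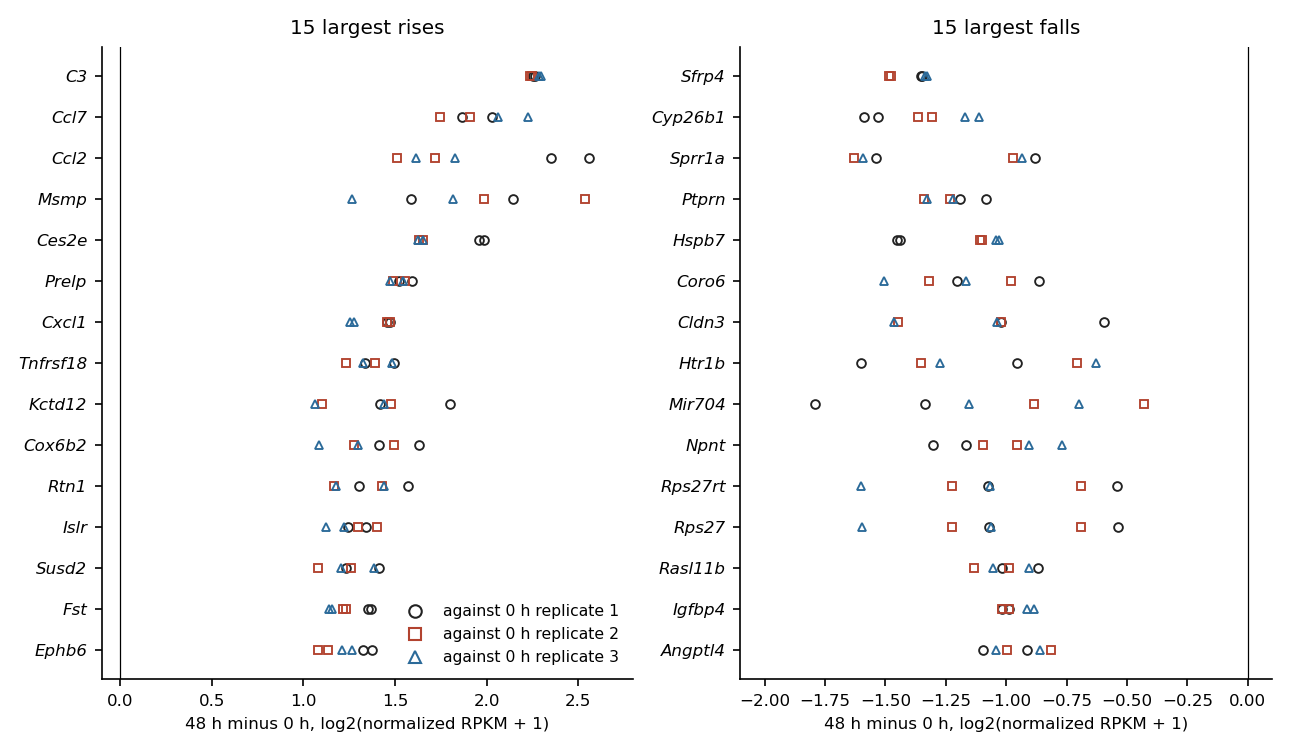
Difference of log2(normalized RPKM + 1) between each 48 h library and each 0 h library (6 points a gene) for the 15 largest rises and the 15 largest falls, with symbols for 0 h replicate 1 (circles), 2 (squares) and 3 (triangles). Every point of a panel lies on the same side of 0 because the genes were chosen to have no overlap between the groups. The points of C3 and Prelp lie close together whichever 0 h library was used.

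C3, the complement component at which the activation pathways meet, had 0.0675, 0.0791 and 0.0455 normalized RPKM in 0 h replicates 1 to 3 and 4.13 and 4.09 in 48 h replicates 2 and 3. The 0 h values rest on 4, 9 and 8 tags and the 48 h values on 390 and 366. Both 48 h libraries of C3 were thus far above every 0 h library, by 51.8 to 90.8 times over the 6 pairs of libraries. The ratio of the means was 64.3 and the log2 fold change 2.27 ± 0.0535 (SE), with an adjusted p of 2.58e-10 in limma. C3 lies at chr17:57203967-57228136 on the minus strand of mm10 and stood at 1.89 ± 0.124 (SD, n = 3) at 24 h, between the other control groups. In cells given cholesterol for 48 h its mean was 2.69, below that of control cells at 48 h (log2 difference -0.47, adjusted p = 6.57e-05, limma).

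Of 10 complement genes tested out of 19 listed, 6 rose and 0 fell (60.0%, against 7.66% of all genes). Their median log2 fold change was 0.37 against 0.00 over all genes. A gene near 0 at 0 h could pass the filter on reads through a group in which it was high. That can raise the share of rises among the members tested. C1s1 and C1ra encode proteases of the C1 complex that starts the classical pathway. C1s1 had 3.01, 2.71 and 3.08 normalized RPKM at 0 h and 5.73 and 6.07 at 48 h. That is a ratio of 2.01 for C1s1 (log2 fold change 0.81 ± 0.0984 SE, adjusted p = 0.000203). C1ra rose from 3.86, 4.19 and 4.35 to 6.04 and 7.15 normalized RPKM (ratio 1.59, adjusted p = 0.000283). C4b, the C4 protein cleaved by the C1 complex, was low throughout, with 0.052, 0.11 and 0.0804 normalized RPKM at 0 h and 0.331 and 0.436 at 48 h (ratio 4.75, adjusted p = 0.000805). C3, C1s1 and C1ra were called under every alternative, and C4b under the 21 of 22 in which it was tested. Cd55, an inhibitor of complement on the cell surface, and Clu, which encodes clusterin, rose by ratios of 1.82 and 1.36 (adjusted p = 0.00386 and 0.0132, limma), and both lost the call without 48 h replicate 3, as Clu did without 48 h replicate 2. Serping1, which encodes an inhibitor of the C1 proteases, was not called (adjusted p = 0.103). C1qa, C1qb and C1qc, complement genes made mostly by macrophages, had 0 tags in all 5 libraries.

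The chemokine and NF-kB list showed the same direction, with 10 of 21 tested members higher and 1 lower (47.6% and 4.76%). Their median log2 fold change was 0.27. This list holds 31 genes, and the limit set by the filter on reads applies to it too. Ccl2 and Ccl7, which attract monocytes, are neighbours at chr11:82035577-82037452 and chr11:82045712-82047523. Ccl2 had 0, 0.792 and 0.665 normalized RPKM at 0 h (0, 7 and 9 tags) and 4.1 and 4.9 at 48 h (30 and 34 tags). Both 48 h values were thus above all at 0 h, with a ratio of 9.27 and a log2 fold change of 1.93 ± 0.238 (SE, adjusted p = 0.000225, limma). Ccl7 went from 0.672, 0.819 and 0.459 normalized RPKM (3, 7 and 6 tags) to 5.09 and 5.82 (36 and 39 tags), a ratio of 8.39 with 6.22 to 12.7 over the 6 pairs of libraries (adjusted p = 1.32e-05). Cxcl1, a chemokine for neutrophils, had 0, 0 and 2 tags at 0 h and 13 and 12 at 48 h, or 1.78 and 1.74 normalized RPKM, so that no ratio is given (log2 fold change 1.40 ± 0.131 SE, adjusted p = 2.65e-05). At 24 h, when 4.45% of all genes were called higher and 3.81% lower than at 0 h, these 3 chemokines already had means of 4.79, 4.81 and 1.72 normalized RPKM.

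Cell surface and regulatory members of the list rose by smaller ratios and from higher levels. Icam1, an adhesion molecule for leukocytes, had 1.58, 1.88 and 1.71 normalized RPKM at 0 h and 4.93 and 4.82 at 48 h (ratio 2.83, log2 fold change 1.11 ± 0.054 SE, adjusted p = 6.5e-07). Vcam1, another such molecule, had 5.75, 5.87 and 5.61 against 10.1 and 11.4 (ratio 1.87, adjusted p = 5.03e-06). Nfkbia, the inhibitor that NF-kB itself induces, had 11.0, 9.76 and 11.4 against 23.7 and 23.2 (ratio 2.19, adjusted p = 5.01e-06). In all 3 genes the groups were separate by more than their own range. Cx3cl1, a chemokine anchored in the membrane, had 6.49, 7.04 and 7.10 normalized RPKM at 0 h and 12.6 and 11.8 at 48 h (ratio 1.77, adjusted p = 1.25e-05). Relb, an NF-kB subunit, rose by a ratio of 2.05 (adjusted p = 4.49e-05). Ccl9 and Tnfaip3, a chemokine and an NF-kB inhibitor, rose by 1.67 and 1.30 (adjusted p = 0.00443 and 0.0138) and lost the call without 48 h replicate 3, Ccl9 also against 0 h replicate 1 alone, and Tnfaip3 against replicates 2 and 3 alone. The other 8 rises were called under every alternative. Il6 was low and not called, with 0.118 to 0.303 normalized RPKM at 0 h and 0.374 and 0.276 at 48 h (adjusted p = 0.245). Ptgs2, which encodes the inducible cyclooxygenase, went the other way, from 9.0, 8.66 and 8.46 normalized RPKM to 5.25 and 5.37 (log2 fold change -0.62 ± 0.0523 SE, adjusted p = 1.32e-05).

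**Figure D3:**
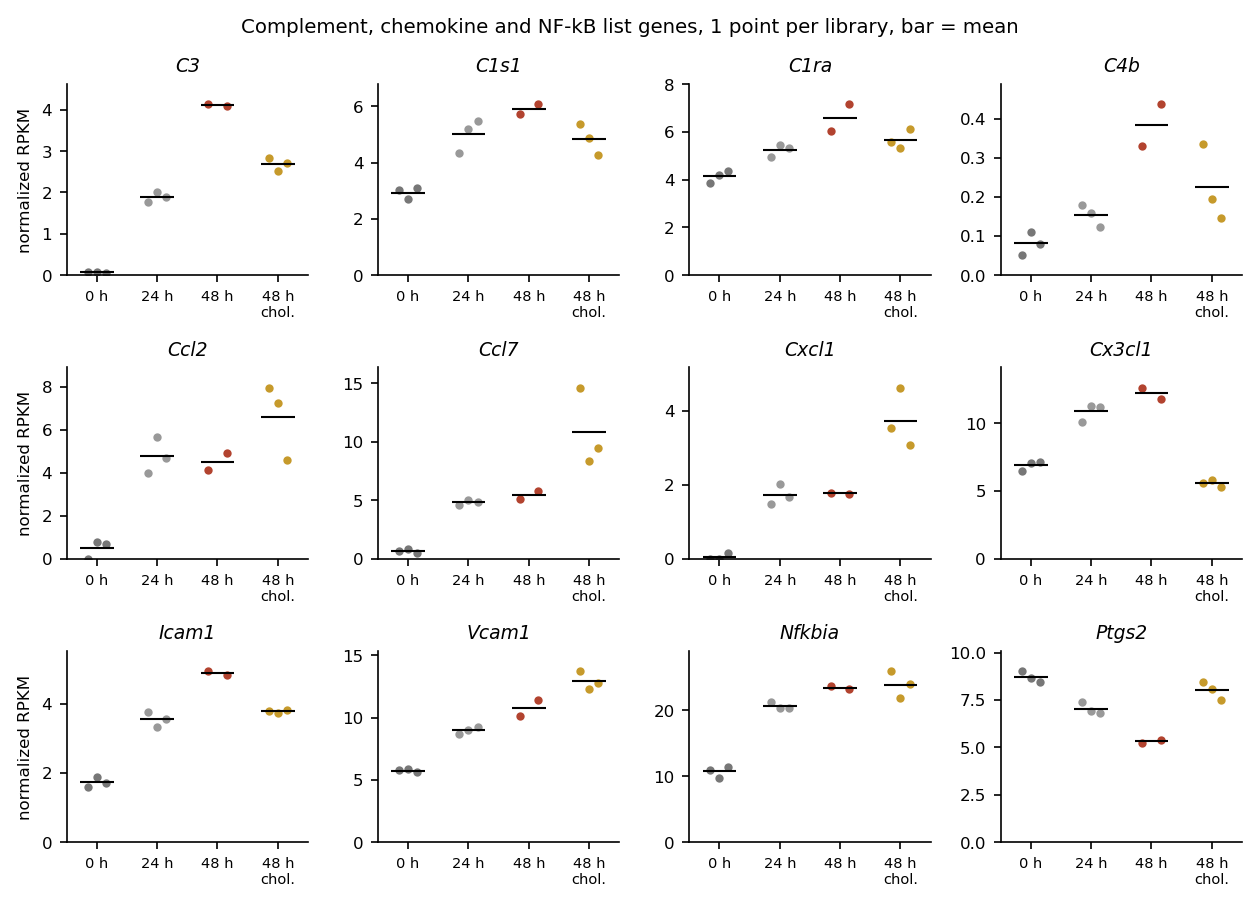
Normalized RPKM of 12 complement, chemokine and NF-kB list genes in each library of control cells at 0, 24 and 48 h and of cells given cholesterol for 48 h, with the group mean as a bar and each axis starting at 0. The 2 libraries at 48 h lie above the 3 at 0 h in 11 genes and below them in Ptgs2.

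Cholesterol-loaded cells at 48 h were compared with the same 48 h control libraries. Of the 10 complement genes tested, 0 were higher with cholesterol and 6 lower, at a median log2 difference of -0.23. The chemokine and NF-kB list did not share a direction, with 9 of 21 tested members higher and 4 lower (median 0.21). Cx3cl1 had a mean of 5.56 normalized RPKM with cholesterol against 12.2 without (log2 difference -1.01, adjusted p = 6.03e-07, limma). Ccl7 had 10.8 with cholesterol against 5.46 without (0.84, adjusted p = 0.00315), and Cxcl1 3.73 against 1.76 (0.76, adjusted p = 0.00117). Nfkbia had 23.9 against 23.4 (0.02, adjusted p = 0.869). Across all genes, 11.9% were higher and 12.9% lower with cholesterol than without at 48 h.

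Among 32 interferon-stimulated and MHC class I genes tested, 6 rose and 0 fell (18.8%), and the median over the list was 0.27 on the log2 scale. Without 48 h replicate 3 or without 0 h replicate 3 only 3 were called, against 0 h replicate 1 alone 2, and 4 without 48 h replicate 2. H2-K1, a classical MHC class I heavy chain, had 8.35, 9.13 and 9.36 normalized RPKM at 0 h and 14.3 and 14.1 at 48 h (ratio 1.59, adjusted p = 0.00106), and was called under every alternative. Tap1, a subunit of the peptide transporter, had 1.68, 1.95 and 2.61 against 4.51 and 4.73 (ratio 2.22, adjusted p = 0.00262), and was not called against 0 h replicate 3 alone (adjusted p = 0.0574). Tapbp, which links the transporter to MHC class I, rose by a ratio of 1.49 (adjusted p = 0.00553) but was not called against 0 h replicate 1 alone. B2m, the light chain of MHC class I, was not called, with 39.6, 29.4 and 22.3 against 34.8 and 36.1 (adjusted p = 0.354). The interferon-induced genes Ifit3, Ifi35 and Ifi27 were called with adjusted p-values of 0.0275 to 0.0409, and each lost the call without 48 h replicate 3 and without 0 h replicate 3. MHC class I genes are near-identical to each other, and reads may be split between them.

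Extracellular matrix genes split into rises and falls. Of 31 matrix glycoproteins and proteoglycans tested, 5 rose and 11 fell (16.1% and 35.5%), and the median log2 fold change was -0.05. The rises include 3 small leucine-rich proteoglycans that bind collagen. Prelp had 10.8, 11.1 and 11.2 normalized RPKM at 0 h and 32.9 and 34.6 at 48 h. The groups of Prelp were far apart and each was tight, with ratios of 2.93 to 3.21 over the 6 pairs of libraries (mean ratio 3.06, log2 fold change 1.53 ± 0.11 SE, adjusted p = 5.01e-06). Fmod (fibromodulin), an abundant gene, had 39.5, 33.8 and 29.1 against 69.5 and 71.9 (ratio 2.07, adjusted p = 0.000385). Podn (podocan) had 1.40, 1.52 and 1.63 against 3.97 and 4.74 (ratio 2.87, adjusted p = 1.43e-05). Thbs2, a thrombospondin that limits angiogenesis, also rose, from 3.23, 3.15 and 3.46 to 6.56 and 6.19 normalized RPKM (ratio 1.94, adjusted p = 7.38e-06). All 5 rises were called against each 0 h library alone, and 8 were counted without 0 h replicate 1.

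The falls of the same list were led by Ogn, Spp1, Nid2 and Thbs3. Ogn (osteoglycin), also a leucine-rich proteoglycan, had 4.91, 4.66 and 4.75 normalized RPKM at 0 h and 1.90 and 2.45 at 48 h (log2 fold change -0.87 ± 0.0908 SE, adjusted p = 6.61e-05). Its reads may include some of Cenpp, which overlaps it. Nid2, a basement membrane protein, had 4.02, 3.77 and 3.57 against 2.16 and 2.18 (ratio of 0 h to 48 h 1.75, adjusted p = 0.000163). Thbs3 had 4.80, 4.24 and 4.57 against 2.82 and 2.58 (ratio of 0 h to 48 h 1.68, adjusted p = 0.000505). These 3 falls held under every alternative. Spp1 (osteopontin), a matrix phosphoprotein found in plaques, had 4.17, 4.62 and 3.59 against 2.06 and 2.06 (ratio of 0 h to 48 h 2.01, adjusted p = 0.00619), and was not called against 0 h replicate 3 alone (adjusted p = 0.0927). Of the 11 falls, 5 were called against each 0 h library alone, and 7 were counted without 48 h replicate 2 and also without 48 h replicate 3. Fn1 (fibronectin) was not called, with 78.5, 51.8 and 39.5 normalized RPKM at 0 h and 51.3 and 54.1 at 48 h (adjusted p = 0.923).

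Elastic fibre genes and the lysyl oxidases that cross-link them were also divided, with 4 rises and 5 falls among 21 tested (19.0% and 23.8%). The 4 rises were Mfap4, Ltbp4, Efemp1 and Fbln1, which encode proteins that associate with elastic fibres. Mfap4 had 15.9, 14.5 and 15.3 normalized RPKM at 0 h and 31.0 and 27.4 at 48 h (ratio 1.91, adjusted p = 0.000561), and Ltbp4 had 4.31, 4.66 and 4.92 against 7.59 and 7.14 (ratio 1.59, adjusted p = 0.000225). All 4 were called under every alternative in which they were tested, which leaves out 1 for Fbln1. The list gave 7 rises without 0 h replicate 1. Of the 5 falls, 4 were lysyl oxidase-like enzymes. Loxl4 went from 6.2, 6.18 and 5.76 to 2.98 and 2.82 normalized RPKM (ratio of 0 h to 48 h 2.08, adjusted p = 0.000197) under every alternative. Loxl3, Loxl1 and Loxl2 fell by log2 fold changes of -0.55, -0.35 and -0.30, of which Loxl1 and Loxl2 lost the call without 48 h replicate 3, when 2 falls were left in the list, and 10 falls were counted against 0 h replicate 1 alone. Eln (elastin) and Lox were not called (adjusted p = 0.531 and 0.235).

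**Figure D4:**
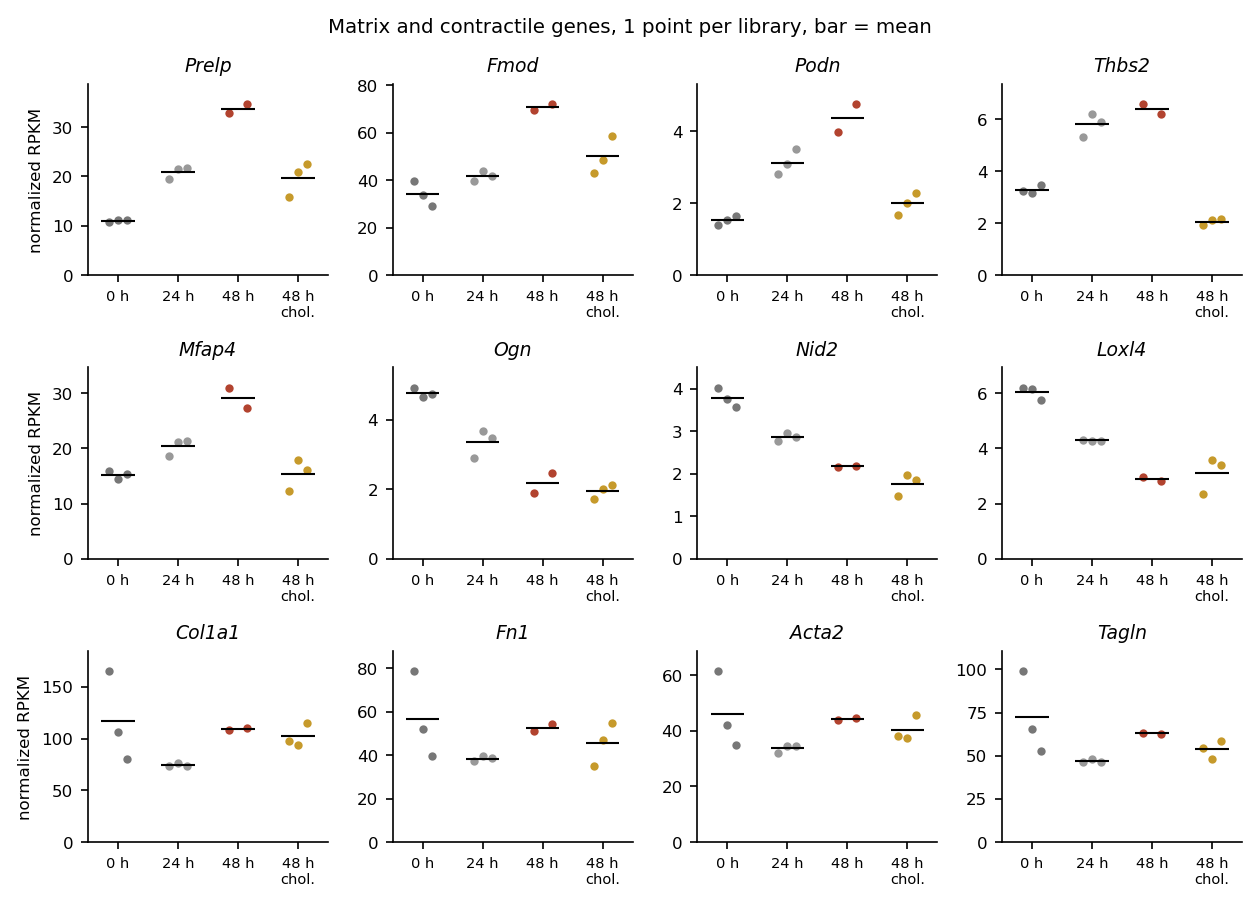
Normalized RPKM of 12 matrix and contractile genes in each library of control cells at 0, 24 and 48 h and of cells given cholesterol for 48 h, with the group mean as a bar and each axis starting at 0. Prelp, Fmod, Podn, Thbs2 and Mfap4 were higher at 48 h than at 0 h and Ogn, Nid2 and Loxl4 lower, whereas the 48 h values of Col1a1, Fn1, Acta2 and Tagln lay inside the range of the 0 h libraries.

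Of 21 collagen genes tested, 5 rose and 2 fell (23.8% and 9.52%). Col3a1, the type III collagen of the vessel wall, had 13.2, 11.7 and 10.0 normalized RPKM at 0 h and 17.4 and 17.1 at 48 h (ratio 1.48, adjusted p = 0.00325). Col8a2, a short-chain collagen, rose from 0.0885, 0.0852 and 0.146 to 0.40 and 0.53 (ratio 4.36, adjusted p = 7.67e-05), and Col15a1, of basement membranes, fell from 0.116, 0.135 and 0.131 to 0.0391 and 0.0363 (ratio of 0 h to 48 h 3.37, adjusted p = 8.78e-05). Col8a2 and Col15a1 are thus low genes whose groups were separate, and both were called under the 21 of 22 alternatives in which they were tested. Without any one of 48 h replicates 2 and 3 and 0 h replicates 2 and 3, 3 rises were counted, and 6 without 0 h replicate 1. Among 25 matrix proteases and inhibitors tested, 5 rose and 4 fell (20.0% and 16.0%). Mmp15, a membrane-anchored metalloproteinase, rose by a ratio of 3.24 (0.295, 0.521 and 0.486 against 1.52 and 1.29, adjusted p = 4.37e-05), and Serpine2, an inhibitor of thrombin, by 1.91 (adjusted p = 0.000326). Plat, the tissue plasminogen activator, fell from 1.82, 2.38 and 2.19 to 0.918 and 1.24 (adjusted p = 0.000415). Adam19, Adamts4 and Adamts12 also fell, and these falls were called under every alternative, except that Adamts12 was not tested where a mean of at least 1 RPKM was required. The rises numbered 2 without 48 h replicate 3.

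Genes of the TGF-beta pathway, which drives matrix production in these cells, gave 3 rises and 6 falls among 25 tested (12.0% and 24.0%), and the median over the list was -0.12 on the log2 scale. Acvrl1, a type I receptor for BMP9, rose from 1.93, 2.11 and 2.38 to 4.01 and 4.26 normalized RPKM (ratio 1.93, adjusted p = 2.18e-05). Inhba, the activin A subunit, fell from 6.30, 5.31 and 5.46 to 3.70 and 3.52 (ratio of 0 h to 48 h 1.58, adjusted p = 0.000537), and Smad7, a feedback inhibitor of the pathway, from 7.67, 7.35 and 7.21 to 5.70 and 5.15 (adjusted p = 0.00175). Fst (follistatin), which binds activin, was among the 15 largest rises, with 5.82, 6.50 and 6.90 at 0 h and 16.4 and 16.6 at 48 h (ratio 2.58, adjusted p = 1.47e-06). The activin subunit and its binding protein thus moved in opposite directions, each called under every alternative.

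The 15 largest falls, also ranked by log2 fold change, were Sfrp4, Cyp26b1, Sprr1a, Ptprn, Hspb7, Coro6, Cldn3, Htr1b, Mir704, Npnt, Rps27rt, Rps27, Rasl11b, Igfbp4 and Angptl4. Of these, 13, 11 and 12 were called against 0 h replicates 1, 2 and 3 alone, and 11 against each. Sprr1a and Cldn3 were called against no single 0 h library (adjusted p = 0.118 to 0.141 and 0.0731 to 0.223), Htr1b not against replicates 2 and 3 (0.105 and 0.101), and Mir704 not against replicate 2 (0.102). Without 48 h replicate 3 the adjusted p was 0.209 for Sprr1a, 0.191 for Cldn3 and 0.134 for Htr1b, and without 48 h replicate 2 it was 0.0512 for Cldn3 and 0.0997 for Mir704. Without 0 h replicate 2 or 3 it was 0.0597 and 0.0506 for Sprr1a, and 0.0722 and 0.0652 for Cldn3. These 4 genes rest on 1 to 59 tags a library. Mir704 lies inside Pdia4 and Cldn3 overlaps Wbscr25, so their reads cannot be assigned to either. Rps27 and Rps27rt are near-identical, overlap and share their 1 to 20 tags, and count as 1 observation.

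Sfrp4, a secreted inhibitor of Wnt signalling, had 2.56, 2.90 and 2.51 normalized RPKM at 0 h and 0.399 and 0.392 at 48 h. Both groups were tight and the ratio of 0 h to 48 h was 6.73, with 6.30 to 7.40 over the 6 pairs of libraries (log2 fold change -1.39 ± 0.0806 SE, adjusted p = 1.41e-06). Sfrp4 lies at chr13:19623175-19632823 and had 0.864 ± 0.109 (SD, n = 3) at 24 h. Cyp26b1, the enzyme that breaks down retinoic acid, was far more abundant, with 24.9, 21.2 and 18.4 against 7.96 and 7.61 (ratio of 0 h to 48 h 2.76, adjusted p = 1.25e-05). With cholesterol at 48 h its mean was 8.71 against 7.78 without (log2 difference 0.14, adjusted p = 0.416, limma). Ptprn, a membrane protein of secretory granules, had 5.55, 6.26 and 6.2 against 2.09 and 1.87 (adjusted p = 5.03e-06). Hspb7, a small heat shock protein of muscle, had 35.4, 27.7 and 26.4 against 12.3 and 12.4 (ratio of 0 h to 48 h 2.42, adjusted p = 7.39e-05). In cholesterol-loaded cells at 48 h Hspb7 stood at 31.5 (log2 difference 1.28 from control, adjusted p = 2.66e-05), within the range of the 0 h libraries.

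Npnt (nephronectin), a ligand of integrin alpha 8, had 7.77, 6.59 and 5.66 normalized RPKM at 0 h and 2.55 and 2.91 at 48 h (ratio of 0 h to 48 h 2.45, adjusted p = 1.32e-05). Igfbp4, which binds insulin-like growth factors, had 6.16, 6.17 and 5.67 against 2.61 and 2.54 (adjusted p = 5.31e-05), and Igfbp3, another such protein, had 6.21, 7.12 and 5.96 against 10.3 and 8.97 (ratio 1.5, adjusted p = 0.00378). These 2 binding proteins moved in opposite directions, whereas Igf1 was not called, with 1.42 to 1.46 at 0 h and 1.42 and 1.5 at 48 h (adjusted p = 0.92). Igfbp3 was not called against 0 h replicate 2 alone. Angptl4, an inhibitor of lipoprotein lipase that PPAR factors induce, fell from 2.86, 2.61 and 2.72 to 0.807 and 1.05 normalized RPKM (ratio of 0 h to 48 h 2.93, adjusted p = 0.0002). Fabp4 and Pparg, a fatty acid binding protein and the nuclear receptor of fat cells, fell as well, Fabp4 from 3.64, 4.66 and 4.22 to 1.63 and 2.11 (adjusted p = 0.000251) and Pparg from 0.326, 0.295 and 0.338 to 0.105 and 0.15 (adjusted p = 3.99e-05). The adipocyte markers Adipoq and Plin1 had 1 tag each in the 5 libraries and Cidec and Lep 0. The summed level of the adipocyte list was 31.8 to 37.3 normalized RPKM at 0 h and 32.8 to 35.0 at 48 h, mostly Plin4.

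Among the remaining large rises, several had few or no reads in 0 h libraries. Ces2e had 0.0962, 0.378 and 0.379 normalized RPKM (2, 15 and 23 tags) against 3.26 and 3.34 (107 and 104 tags), a ratio of 11.6 (adjusted p = 1.41e-06). Rtn1, a reticulon of the endoplasmic reticulum, had 0.084, 0.195 and 0.185 against 2.22 and 1.68 (ratio 12.6, adjusted p = 1.41e-06). Its mean with cholesterol at 48 h was 0.257 (log2 difference -1.23 from control, adjusted p = 7.75e-07). Msmp had 1, 0 and 6 tags at 0 h and 24 and 14 at 48 h, and overlaps Rgp1. More abundant genes rose by smaller ratios. Islr had 21.3, 20.4 and 23.2 against 51.7 and 55.5 (ratio 2.48, adjusted p = 1.99e-05), and Cox6b2 had 15, 16.6 and 19.1 against 48.5 and 41.6 (ratio 2.67, adjusted p = 6.16e-06). Susd2 and Ephb6 rose by ratios of 2.81 and 3.27 (adjusted p = 1.41e-06 and 1.27e-06). Kctd12 rose from 1.07, 1.58 and 1.65 to 4.53 and 6.2 (adjusted p = 0.000212).

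Apoe, the apolipoprotein that carries cholesterol out of cells, had 28.6, 30.8 and 29.3 normalized RPKM at 0 h and 69.9 and 66.8 at 48 h. It was the strongest rise among 9 tested targets of LXR, the receptor for oxidized sterols (ratio 2.31, log2 fold change 1.18 ± 0.107 SE, adjusted p = 2.18e-05). Of the 9, 4 rose and 0 fell (44.4%), but Scd1, Srebf1 and Nr1h3 rose by ratios of 1.22 to 1.27 and lost the call without 48 h replicate 3, when only Apoe was left, and 2 were left without 48 h replicate 2. Abca1, the cholesterol exporter that is a classical LXR target, had 0.343, 0.389 and 0.429 against 0.559 and 0.643 and was not called (adjusted p = 0.287). Its mean with cholesterol at 48 h was 5.19, whereas that of Apoe was 65.3 with cholesterol and 68.4 without (adjusted p = 0.682). Among 21 enzymes of cholesterol synthesis, 2 rose and 3 fell, at a median log2 fold change of -0.03, and none of the 5 was called against each 0 h library alone. The falls numbered 1 and 0 without 48 h replicates 2 and 3 and 1 without 0 h replicate 2, and the rises 1 without any one of these or 0 h replicate 3. In the cholesterol comparison 19 of these 21 were lower and 0 higher. In the list of sterol uptake and feedback genes, 0 of 14 were called by limma with time in control medium, and 2 were higher and 1 lower at an unadjusted p under 0.05.

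**Figure D5:**
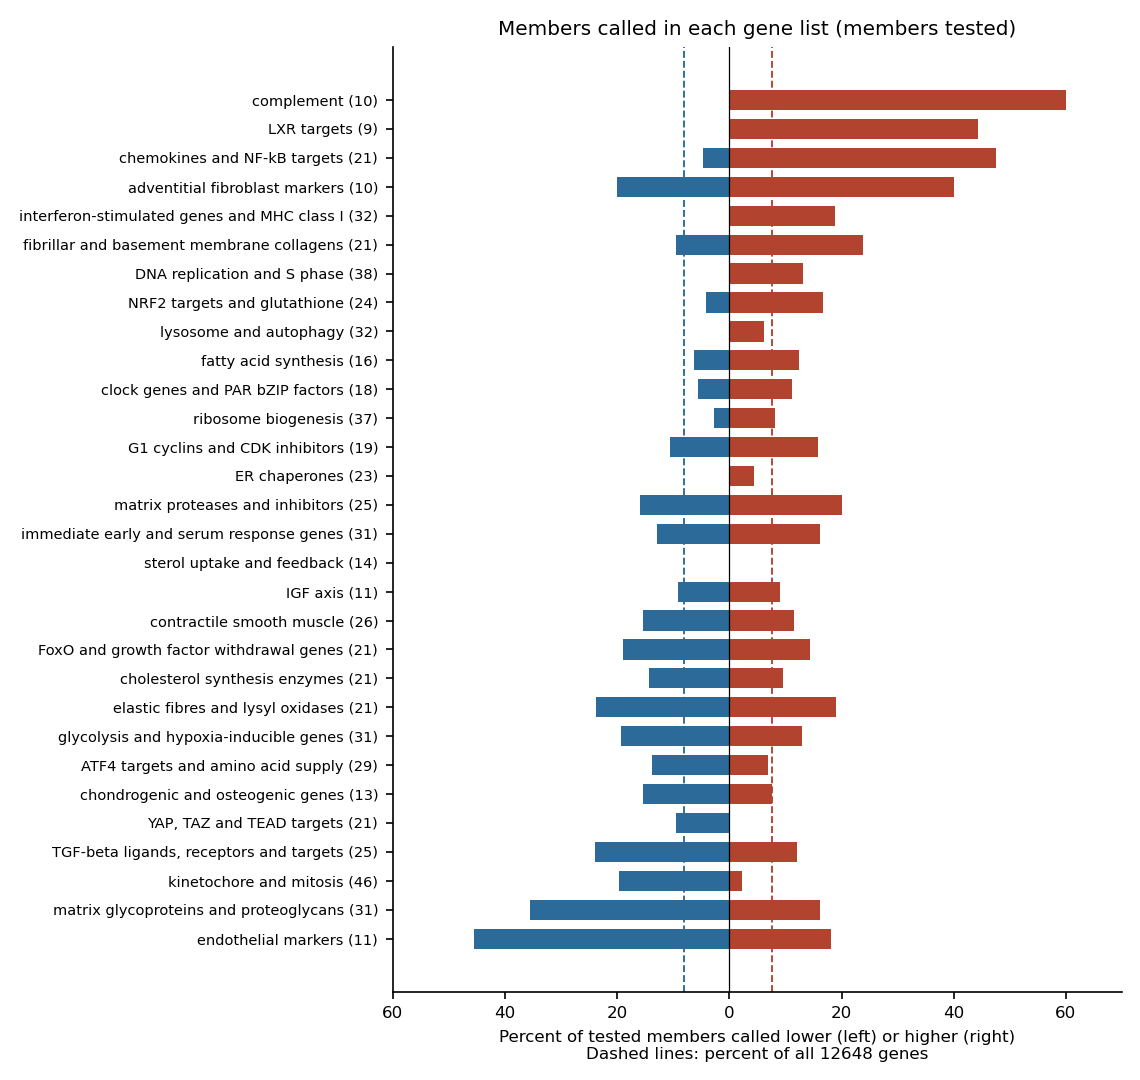
Percent of tested members called lower (blue, left) and higher (red, right) at 48 h in each gene list with at least 9 tested members, the number of which stands in parentheses, with dashed lines for all genes tested (8.06% and 7.66%). Complement, LXR targets and the chemokine and NF-kB list extend furthest to the right at 60.0%, 44.4% and 47.6%, and endothelial markers and matrix glycoproteins furthest to the left at 45.5% and 35.5%. Only members that passed the filter on reads are counted, and a gene can pass through any library in which it is high.

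Changes in cell cycle genes were small. Of 46 kinetochore and mitosis genes, 9 fell and 1 rose (19.6% and 2.17%), and their median log2 fold change was -0.09. Kif20a, a mitotic kinesin, and Plk1, a mitotic kinase, fell under every alternative. Kif20a had 17.6, 15.7 and 14.5 normalized RPKM at 0 h against 11.0 and 9.94 (log2 fold change -0.56 ± 0.0803 SE, adjusted p = 0.000645), and Plk1 had 4.27, 4.0 and 4.03 against 2.82 and 2.28 (adjusted p = 0.00146). The count of falls was 5 without either 48 h library and 6, 3 and 4 against 0 h replicates 1, 2 and 3 alone. The proliferation markers Mki67 and Top2a were not called (log2 fold changes of -0.25 and 0.23, adjusted p = 0.406 and 0.0785), and 5 of 38 DNA replication genes rose and 0 fell, none of them called against each 0 h library alone. These rises were 13.2% of the DNA replication list, against 7.66% of all genes. They numbered 1 without either 48 h library or 0 h replicate 2, and 3 without 0 h replicate 1. Btg2, an antiproliferative gene, rose from 15.2, 15.4 and 14.5 to 24.5 and 24.1 (ratio 1.62, adjusted p = 2.21e-05) under every alternative.

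Immediate early and serum response genes gave 5 rises and 4 falls among 31 tested (16.1% and 12.9%). Dusp1, a phosphatase of MAP kinases, fell from 27.9, 23.7 and 22.7 to 15 and 13.5 normalized RPKM (ratio of 0 h to 48 h 1.73, adjusted p = 0.000244), and Ier5 and Phlda1 fell by log2 fold changes of -0.70 and -0.67 (adjusted p = 0.00338 and 0.000711). These 3 falls held under every alternative. With cholesterol at 48 h Dusp1 was at 29.3 (log2 difference 0.99 from control, adjusted p = 1.68e-05). Fos, Egr1 and Myc were not called (adjusted p = 0.265, 0.232 and 0.538). The rises were led by Klf4, a factor of VSMC phenotype switching, with 18.7, 20.1 and 21.3 against 28.5 and 28.0 (ratio 1.41, adjusted p = 0.00278), and their count fell to 1 without 48 h replicate 3 and to 2 without 48 h replicate 2, and to 3 without 0 h replicate 2 or 3. FoxO and growth factor withdrawal genes gave 3 rises (Gas6, Txnip and Klf15) and 4 falls among 21 (14.3% and 19.0%, against 7.66% and 8.06% of all genes). Txnip, which limits glucose uptake, had 25.7, 27.2 and 26.0 against 38 and 40.3 (ratio 1.49, adjusted p = 0.000209), and Gas6, a ligand of TAM receptors, rose by 1.56 (adjusted p = 0.00128). All 3 rises held under every alternative, whereas the falls numbered 1 without 48 h replicate 2.

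Smaller groups held single large changes. Dbp, a clock-controlled transcription factor, fell from 9.74, 10.9 and 10.8 to 5.69 and 4.64 normalized RPKM (ratio of 0 h to 48 h 2.03, adjusted p = 1.64e-05), whereas Nr1d1 and Per1 were not called (adjusted p = 0.684 and 0.219). Of 29 ATF4 targets, 4 fell and 2 rose (13.8% and 6.9%). Neither rise was called against each 0 h library alone, and the rises numbered 1 without either 48 h library and 4 without 0 h replicate 3. The falls numbered 12 against 0 h replicate 1 alone. Aldh1l2, Trib3 and Chac1 fell under every alternative, Aldh1l2 from 3.97, 3.92 and 3.93 to 2.38 and 2.45 (adjusted p = 0.000362). In cholesterol-loaded cells at 48 h Trib3 and Chac1 had means of 28.4 and 29.1, above both control groups (0 h means of Trib3 11.9 and of Chac1 14.1). Gstm1 and Gpx3, which encode glutathione enzymes, rose by ratios of 1.53 and 1.56 (adjusted p = 0.000502 and 0.00229), while Nqo1, a classical NRF2 target, fell from 5.66, 5.10 and 4.60 to 3.27 and 3.01 (adjusted p = 0.000803).

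Most markers of the labelled cell type were detected in all 5 libraries. Acta2, Tagln and Cnn1, which encode contractile proteins, had 35.0 to 61.3, 52.5 to 98.8 and 21.4 to 37.3 normalized RPKM, although Myocd, the cofactor that drives the contractile programme, had 0.264 to 0.476. Myh11, the smooth muscle myosin heavy chain, had 2.91 to 3.81, while Kcnmb1 and Pcp4 had 21 tags and 1 tag in the 5 libraries together. Of 26 tested genes, 3 rose and 4 fell (11.5% and 15.4%) in the contractile list. The rises numbered 1 without 48 h replicate 2 and 5 without 0 h replicate 1, and 1 of them was called against each 0 h library alone. None of the 4 falls was called against each 0 h library alone. The falls numbered 10 against 0 h replicate 1 alone and 0 against replicates 2 and 3 alone, and 0 and 2 without 48 h replicates 2 and 3, and 1 without 0 h replicate 1 or 2. Acta2 had 61.3, 42.1 and 35.0 at 0 h, the highest in the library with the fewest tags and the lowest in that with the most, and 43.7 and 44.6 at 48 h (log2 fold change -0.02 ± 0.174 SE, adjusted p = 0.947). Des (desmin) was the clearest rise, from 0.343, 0.358 and 0.468 to 0.773 and 0.848 (ratio 2.08, adjusted p = 0.00107).

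Markers of other cell types ranged from no tags to levels above that of Myh11. Of 19 macrophage markers, 6 passed the filter on low values and 1 of these fell (Lgals3, from 7.25, 5.88 and 5.47 to 4.02 and 4.06), while Ptprc, Adgre1 and Itgam had 1 to 6 tags in the 5 libraries together and Fcgr1, Tyrobp and Aif1 had 0. The summed macrophage list was at 10.6 to 13.5 normalized RPKM at 0 h and 11.8 to 12.4 at 48 h. Of 11 endothelial markers tested out of 14, 5 fell and 2 rose (45.5% and 18.2%). Pecam1, an adhesion molecule of endothelial junctions, had 0.186, 0.146 and 0.186 against 0.0505 and 0.0311 (adjusted p = 0.00133). Tek, of the same list, was 1 of the 2 rises, from 0.0863, 0.125 and 0.127 to 0.236 and 0.235. It was called under the 21 of 22 alternatives in which it was tested. The summed endothelial list was 2.28 to 2.48 at 0 h and 1.54 to 1.62 at 48 h. The endothelial falls numbered 3 without either 48 h library, and the rises 1 without 48 h replicate 3 or 0 h replicate 2 or 3. Of 10 adventitial fibroblast markers tested out of 15, 4 rose and 2 fell. Pi16, a marker of fibroblast progenitors, rose from 0.0409, 0.0639 and 0.152 to 0.844 and 0.836 (ratio 9.81, adjusted p = 0.00018), and Cd34 and Ly6a, which also mark these cells, by ratios of 1.43 and 1.69 (adjusted p = 0.00068 and 0.00537). Pcolce2 and Smoc2, of the same list, fell, Pcolce2 from a mean of 1.17 to 0.785 (adjusted p = 0.00218) and Smoc2 from 0.638, 0.647 and 0.548 to 0.37 and 0.38 (adjusted p = 0.000215). Pdgfra, a fibroblast receptor, was not called, with 0.598 to 0.642 at 0 h and 0.537 and 0.791 at 48 h (adjusted p = 0.823). The summed fibroblast list was 24.7 to 35.5 at 0 h and 31.0 to 31.3 at 48 h, mostly Gsn (14.1 to 25.3), which VSMCs also express, and Dpt and Lum had 2 tags each in the 5 libraries. These shifts stand beside the matrix and complement rises above, and their part in them was not tested.

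H3K27ac, a mark of active promoters and enhancers, was measured in 1 library at 0 h and 1 at 48 h, so no test was possible. The authors' region lists held 53096 regions over 44.4 Mb at 0 h and 49500 over 78.3 Mb at 48 h, and the caller's estimate of the share of tags in regions was 16.94% and 39.96%. Values at single genes have to be read against that shift between the lists. A region lay within 1 kb of the start of 80.0% of the genes tested at 0 h and 84.7% at 48 h. With a fold over input of at least 8 these shares were 61.3% and 33.6%, so that their order depends on the threshold. For genes with higher RNA the shares were 76.6% and 79.3%, and for genes with lower RNA 80.0% and 83.5%. Regions were called separately at each time and covered a median of 1360 bp at a start at 0 h and 2000 bp at 48 h. The median log2 ratio of summed tags at 48 h to 0 h was 1.30 for all genes, 1.24 for genes with higher RNA and 1.24 for genes with lower RNA, and per kb of region it was 0.68, 0.56 and 0.51. At the start of Ccl2 there was no region in the 0 h list and 269.1 normalized tags over 5474 bp in the 48 h list. Prelp went from 28.0 normalized tags over 1128 bp to 246.1 over 4260 bp, and C3 from no region to 21.9. Sfrp4, whose RNA fell, also went from no region to 38.5, and Cyp26b1 had no region at either time.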

How the data were processed

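The authors made the RPKM values with HOMER, summing STAR alignments to mm10 over RefSeq gene bodies at most 1 tag per position. Versions of STAR, HOMER and Bowtie2 are not given in the sources used here. That limit can lower abundant genes more in deeper libraries. The signal values of the H3K27ac region lists (Bowtie2, HOMER) are the authors' normalized tags, with regions at a fold ratio over input of at least 4, as deposited. Whether counting used strand is not given in the sources used here. For each of 24453 genes in 34711 named rows, the row with the highest mean was kept. Values recovered as whole tags (100% within 0.25 tag) gave the tag totals. RPKM was rescaled by the median of ratios and fitted with limma 3.58.1 in R 4.3.3 (lmFit, eBayes with trend), 1 mean per group, over 14 libraries, since a count test needs counts. The fit was also run on simulated counts. These had no limit of 1 tag per position, so that run does not cover the differences between the 0 h libraries in abundant genes. Names are those of the 15 largest rises and 15 largest falls (called, mean of at least 1 in the higher group, groups apart) and, from each of 32 lists, up to 4 called members with the largest change plus defining members. Further list members named above, such as those in counts of 5 or fewer, were chosen after their values were seen. The members and lists were chosen with earlier results of these data known. Samples were grouped by the labels, and 22 alternatives were fitted. The adjustment for tag totals was chosen after seeing the data.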

Additional observations from a re-analysis of the deposited data

How the results depend on the processing

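Over the 22 alternatives, the calls of the 30 genes named as largest changes held in 630 of 657 values and were lost in 27, all in Sprr1a, Cldn3, Htr1b and Mir704, with no change of direction. For the 169 other called list members, 723 of 3682 values lost the call and 0 changed direction. The count of genes higher and lower (969 and 1020) moved to 611 and 608 with a mean of at least 1 RPKM required, to 346 and 387 in a fit of the 5 libraries alone, to 461 and 519 with array weights, and to 529 and 508 with 0 h replicate 2 as the only 0 h library. Leaving out 1 library gave 512 to 1214 higher and 534 to 1050 lower, the lowest without 48 h replicate 3 (512 and 534) and the highest without 0 h replicate 1 (1214 and 1050). Without 48 h replicate 2 it gave 614 and 648. The share of rises among the calls was 48.7%, and 58.8% against 0 h replicate 3 alone. The labels do not say whether replicate numbers pair the samples. Deviations from the group means had correlations of 0.0371 and 0.0559 between same-numbered 0 h and 48 h libraries. With 2 libraries at 48 h these deviations mirror each other, so the correlations cannot exclude a shared culture or batch. A fit with the replicate block called 799 genes higher and 887 lower. Of 1408 list counts under alternatives, 350 moved by over 1.5 times. The causes were not tested. Control medium at 48 h has 2 libraries, and named low genes rest on few tags, such as 1 to 20 in Rps27. Ccl2, Cxcl1 and Msmp had no tags in some of the 0 h libraries.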
